A study of Mus musculus with 6 samples.

Results

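Integrins are the receptors by which a fibroblast holds on to its matrix, and the focal adhesion is the plaque of proteins that ties them to the actin cytoskeleton. The genes described here are those of the integrin subunits (symbols that begin with Itga or Itgb and a digit, and Itgav) together with 20 named adhesion components such as talins, vinculin, paxillin and zyxin. The rule found 41 genes, 21 of them integrin subunits, among the 14870 genes of the expression table, and left out Itgb1bp1 and Itgb3bp, which encode integrin-binding proteins and not subunits. A gene was tested if its normalized count averaged 10 or more in either group, and 40 of the 41 were. Only Itgb7, the beta subunit of lymphocytes, was below that level.

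Each integrin is a dimer of 1 alpha and 1 beta subunit, and the pair sets the ligand. Beta 1 joins many alpha subunits to form receptors for collagen, laminin and fibronectin, while alpha v joins several beta subunits to form receptors for ligands with the RGD motif, among them vitronectin, fibronectin and the latent form of TGFβ. When talin and kindlin bind the tail of the beta subunit the integrin becomes active, and vinculin, paxillin, focal adhesion kinase, alpha-actinin, zyxin and VASP then gather on it. In lung fibroblasts these proteins carry force between matrix and cytoskeleton, and alpha v integrins are known for releasing active TGFβ.

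The RNA came from primary lung-resident fibroblasts of TGFα mice, in which rtTA under the Clara cell-specific promoter (CCSP-rtTA) drives a TetO TGFα transgene in airway epithelium while the animals eat doxycycline (Dox). All 6 libraries carry this background and came from animals after 10 days of Dox, which the control siRNA group shares, so no unfibrotic cells enter the comparison. Cells were transfected for 72 h with stealth control siRNA (3 libraries) or stealth Aurkb siRNA (3 libraries), the second aimed at Aurora kinase B, an enzyme of chromosome segregation and cytokinesis. The study used mice of 10 to 16 weeks and primary cells of passages 1 to 5. No source used here states that the 3 samples of a group are separate animals or cultures. The p-values therefore speak only of the spread among these libraries, which could be technical.

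Reads assigned to genes ranged from 29350227 to 30441954 with control siRNA and from 20820596 to 27572833 with Aurkb siRNA. Aurkb itself had 99.5, 108 and 134 normalized counts with control siRNA and 37.4, 52.8 and 28.9 with Aurkb siRNA, so the targeted mRNA was lower in every library that received its siRNA (log2 change -1.52, SE 0.23, limma adjusted p = 0.00093). A normalized count is a read count divided by the size factor of its library. Of the fibroblast markers, all 8 were measured, and their summed level was 9140 to 10034 RPKM (reads scaled by the length of the gene and the size of the library) with control siRNA and 7562 to 8293 RPKM with Aurkb siRNA, with Pdgfra and Dcn called lower. Endothelial RNA was present as well, and 10 of its 11 markers were called lower, their summed level being 85.1 to 106 RPKM with control siRNA and 42.3 to 53.2 RPKM with Aurkb siRNA. None of these 11 was at 0. Of the 8 pericyte and smooth muscle markers 5 were called lower, although their sums overlapped (126 to 176 RPKM, then 121 to 193). Of the 5 mesothelial markers, all with a negative change, 3 passed as lower and 2 were called (446 to 539 RPKM in sum, then 243 to 477). The 6 neutrophil markers were all called higher, from at most 0.61 RPKM in sum with control siRNA to between 8.92 and 10.6 RPKM. The part that these shifts play in the changes below was not tested, and in bulk RNA fewer cells of a type and less RNA per cell cannot be told apart.

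Among the 41 genes, Itgav and Itgb3, which encode the chains of the vitronectin receptor, had the largest falls, and they were also the only 2 with the 7-base word AACGTGT or its neighbor ACGTGTA in the 3′ UTR of an annotated transcript. The word also lies in the coding sequence of Aurkb. It was singled out in earlier work on these same libraries because many of the genes that hold it fell, so its presence here is a description and no independent evidence. The sites are shown because these genes lead the result. They are given on the gene's own strand from GENCODE M21 transcripts on GRCm38, with the word in capitals. Itgav holds it in the 3′ UTR at chr2:83803539-83803545 and chr2:83806901-83806907 and once in the coding sequence at chr2:83803253-83803259, Itgb3 in the 3′ UTR at chr11:104669503-104669509, and Aurkb at chr11:69048235-69048241, all on the plus strand.
Aurkb coding sequence: aatttggaAACGTGTacttggct
Itgav coding sequence: ctttttcaAACGTGTccgaccac
Itgav 3′ UTR, first site: cctacactAACGTGTgttcttag
Itgav 3′ UTR, second site: taaacttgAACGTGTggtgccag
Itgb3 3′ UTR: gcactgaaAACGTGTgtgtgtgt
The Itgav coding site and the Itgb3 site share the 8 bases AAACGTGT with Aurkb, and so does the coding site of Itga4, a gene that did not pass the test (log2 change 0.09, adjusted p = 0.77). Over the whole table, 22.0% of 1039 genes called lower held either word in the 3′ UTR, against 3.4% of 595 called higher and 5.6% of the other 11578 genes searched. In coding sequence alone, Itga2b, Itga4, Itga9 and Itgb7 held AACGTGT and Itga1 held ACGTGTA, and of these only Itga9 passed the test as lower. The sequence of the siRNA is not given in the sources used here, and what the sites do was not tested.

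A gene was called when limma's Benjamini-Hochberg adjusted p over all 13906 genes tested was 0.05 or less and the change was 1.5-fold or more. By this rule 2 of the 40 genes were higher (Itga5 and Vasp), where 4.64% of all genes tested were, and 4 were lower (Itgav, Itgb3, Itga10 and Itgb4), where 7.67% of all genes were. At an adjusted p of 0.05 or less with no limit on size, 15 of 40 were higher, or 37.5% against 19.5% of all genes, and 8 were lower, or 20% against 20.5%. These counts moved with single libraries, to 4 called higher without Aurkb siRNA replicate 1, to 2 called lower without control replicate 3, and to 5 lower at any size without control replicate 1, control replicate 3 or Aurkb siRNA replicate 3. The 15 higher at any size came to 10 without control replicate 2 or Aurkb siRNA replicate 3. Among these genes, the subunits and the 20 named plaque components divided unevenly. The 20 were chosen with earlier results of these data known, so the division is a description. Of 20 integrin subunits tested, 4 were higher and 7 lower, with a median log2 change of -0.11, while of 20 plaque components 11 were higher and 1 lower, with a median of 0.14. The median over all genes tested was 0.00. The rise was not shared by 61 other plaque genes, given below. Of these, 12 were higher (19.7%) and 16 lower (26.2%) at an adjusted p of 0.05 or less.

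**Figure D1:**
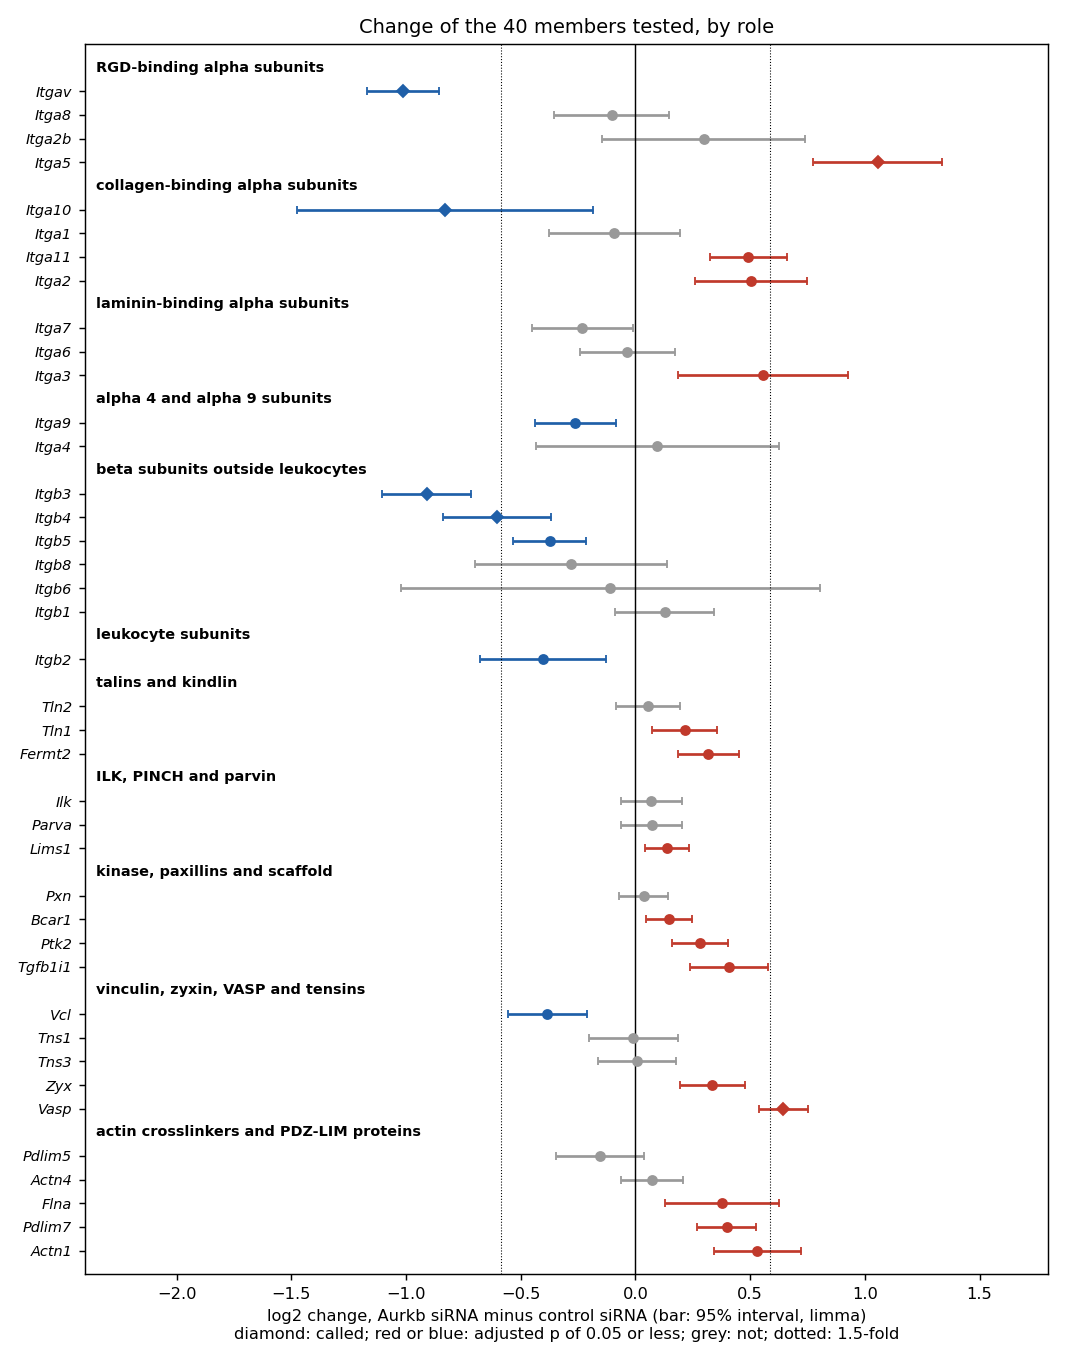
Log2 change of the 40 tested genes, Aurkb siRNA minus control siRNA, with 95% intervals from limma, ordered by role. Diamonds mark the 6 called genes, colors an adjusted p of 0.05 or less, and dotted lines 1.5-fold. Itgav and Itga5 lie farthest to either side, and Vcl is the only plaque component among the blue points.

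The RGD-binding subunits held the largest change in each direction. Itgav, the alpha v subunit, had 5569, 5566 and 6136 normalized counts with control siRNA and 2642, 3121 and 2813 with Aurkb siRNA. Every library with Aurkb siRNA lay far under every control library, and the mean fell to 49.7% of control (log2 change -1.01, SE 0.07, adjusted p = 2.3e-05). The fall was present in every replicate number, with ratios of 0.474, 0.561 and 0.458 for replicates 1, 2 and 3. Itga5, the alpha 5 subunit of the fibronectin receptor, went the other way, with 4063, 4194 and 4525 normalized counts in the control libraries and 7618, 11171 and 8132 after Aurkb siRNA. Its groups did not overlap, but Aurkb siRNA replicate 2 stood above the other two (log2 change 1.06, SE 0.12, adjusted p = 0.00026), and without that library the change was 0.89.

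The 2 genes remaining in the RGD-binding group did not pass the test. Itga8, a subunit of myofibroblasts and smooth muscle that binds nephronectin, had 7063, 8233 and 9240 normalized counts against 7062, 7000 and 8771, and its interval ran from -0.35 to 0.15 on the log2 scale. Itga2b, the alpha subunit of the platelet fibrinogen receptor, was scarce, at 51.2 to 61.7 normalized counts with control siRNA against 52.8 to 82.8 after Aurkb siRNA (interval -0.15 to 0.74). The groups of both genes overlapped.

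**Figure D2:**
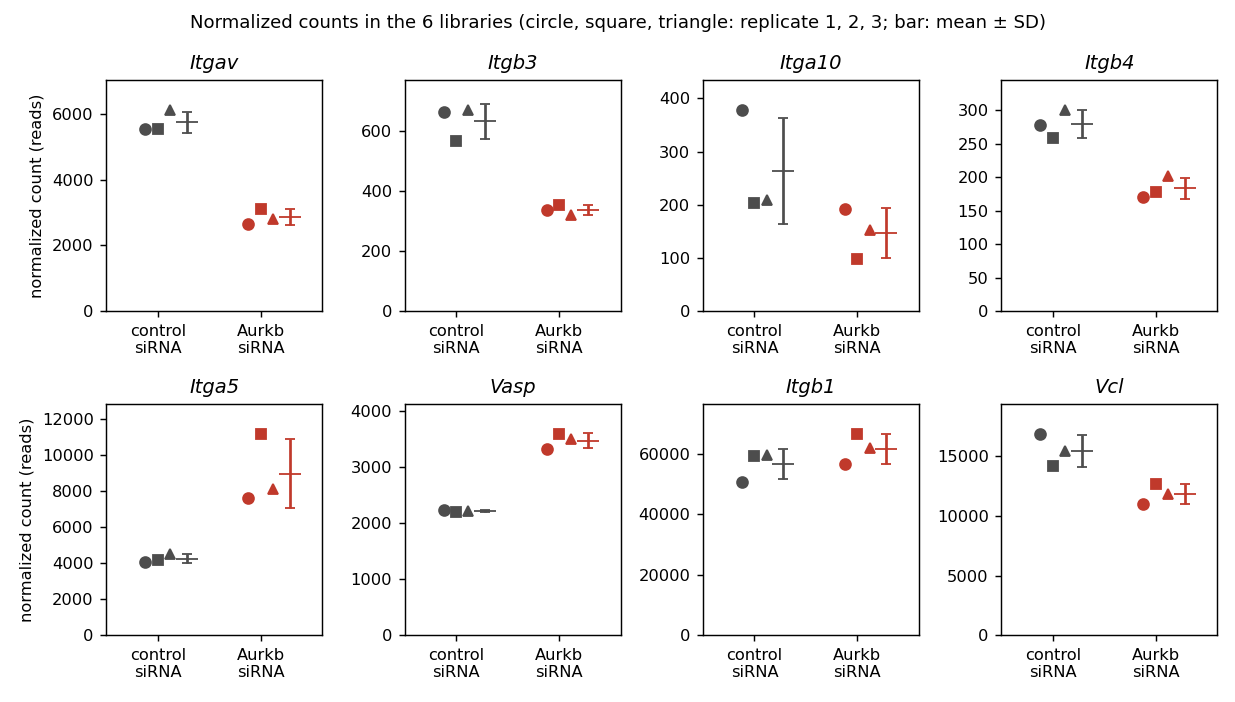
Normalized counts of the 6 called genes and of Itgb1 and Vcl in each of the 6 libraries, with mean ± SD for 3 libraries a group. Circles, squares and triangles are replicates 1, 2 and 3. Itgav, Itgb3 and Vasp have the groups widely apart, the Itga10 groups nearly touch, at 204 and 192 normalized counts, and the Itgb1 groups overlap.

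Of the 5 beta subunits that join alpha v, Itgb3 and Itgb5 were lower and the other 3 did not pass the test. Itgb3, the beta 3 subunit, had 662, 565 and 669 normalized counts with control siRNA and 335, 352 and 318 with Aurkb siRNA. These values did not overlap and fell to 53.0% of control (log2 change -0.91, SE 0.09, adjusted p = 8.7e-05). Itgb5, the beta 5 subunit of another vitronectin receptor, was far more abundant, with 16281, 19084 and 18424 normalized counts against 13644, 13323 and 14456, and it fell by 0.37 on the log2 scale (SE 0.07, adjusted p = 0.0029). Itgb8, whose receptor binds latent TGFβ, had 75.6 to 105 normalized counts with control siRNA against 63.1 to 88.3 after Aurkb siRNA (log2 interval -0.70 to 0.14). Itgb6, the beta subunit of an epithelial receptor for latent TGFβ, was near the lower limit of the test, at 13.7 to 22.4 against 9.32 to 26.9, so its interval was wide, from -1.02 to 0.80.

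Itgb1, the beta 1 subunit, was the most abundant of the 41 genes. It had 50796, 59319 and 59502 normalized counts with control siRNA and 56626, 66494 and 62034 with Aurkb siRNA. The groups overlapped and the change did not pass the test (log2 change 0.13, SE 0.10, interval -0.09 to 0.34, adjusted p = 0.32). Of the 12 alpha subunits that can join it, 4 were higher at an adjusted p of 0.05 or less (33.3%, against 19.5% of all genes). At the same limit 3 were lower (25%, against 20.5% of all genes), and 5 did not pass.

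The collagen receptors held changes in both directions. Itga11, the subunit of fibroblasts that binds fibrillar collagen, had 846, 754 and 795 normalized counts with control siRNA and 1229, 1055 and 1091 with Aurkb siRNA, with every treated library above every control library (log2 change 0.49, SE 0.07, adjusted p = 0.00091). Itga2, of the receptor for collagen I, had 2882, 3366 and 3532 against 3889, 5103 and 4922 (log2 change 0.50, SE 0.11, adjusted p = 0.0059). Both rises were under 1.5-fold. Itga1, of the receptor for collagen IV, did not pass the test, at 3257, 3920 and 4466 normalized counts against 3091, 3685 and 4138 (interval -0.38 to 0.19).

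Itga10, a collagen receptor subunit best known from cartilage, was called lower, with a wide spread between libraries. Its normalized counts were 378, 204 and 210 with control siRNA and 192, 97.3 and 152 with Aurkb siRNA, so that control replicate 1 stood apart and the groups came close to each other. The log2 change was -0.83 (SE 0.28, adjusted p = 0.044). It was -0.54 with an adjusted p of 0.13 when control replicate 1 was left out, -0.56 (adjusted p = 0.12) without Aurkb siRNA replicate 2, and the call was also lost, though with a larger change, without control replicate 2 (-0.99, adjusted p = 0.053), control replicate 3 (-0.96, adjusted p = 0.061) or Aurkb siRNA replicate 3 (-0.88, adjusted p = 0.084). It held without Aurkb siRNA replicate 1 (-1.05, adjusted p = 0.017) and in the fit blocked on replicate (adjusted p = 0.00040), and was lost with log2(RPKM + 1), at -0.48 (adjusted p = 0.068). The exons of Itga10 share 34.5% of their bases with Gm42957, a gene on the same strand, so reads from the 2 genes could not be told apart there.

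Among the laminin receptors, Itga3 was higher, and the change varied between libraries. Itga3, of the receptor for laminin 332, had 3506, 2719 and 2728 normalized counts with control siRNA and 5492, 3365 and 4469 with Aurkb siRNA. The groups overlapped, since control replicate 1 lay above Aurkb siRNA replicate 2, although the ratio within each replicate number was above 1, at 1.57, 1.24 and 1.64 (log2 change 0.56, SE 0.16, adjusted p = 0.024). The test was not passed without Aurkb siRNA replicate 1 (log2 change 0.39, adjusted p = 0.051), Aurkb siRNA replicate 3 (adjusted p = 0.072), control replicate 2 (0.089) or control replicate 3 (0.089). Without Aurkb siRNA replicate 2 (log2 change 0.74, adjusted p = 0.0022) or without control replicate 1 (0.68, adjusted p = 0.014) Itga3 was called higher. In the fit blocked on replicate it passed with the same log2 change, under 1.5-fold (SE 0.07, adjusted p = 7.2e-05). Itga7, a laminin receptor subunit of muscle, had 907, 879 and 788 normalized counts against 846, 669 and 686, with an adjusted p of 0.088, and it passed as lower only with the replicate number as a block (adjusted p = 0.016) or without Aurkb siRNA replicate 1 (0.011). Itga6, the partner of beta 4, did not pass the test, at 801 to 969 normalized counts with control siRNA against 793 to 934 after Aurkb siRNA (interval -0.24 to 0.17).

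Itgb4, which forms the hemidesmosome receptor of epithelium, was called lower and lay close to the 1.5-fold limit. It had 278, 258 and 300.2 normalized counts with control siRNA and 170, 178 and 201 with Aurkb siRNA, without overlap (log2 change -0.61, SE 0.10, adjusted p = 0.0019). Without Aurkb siRNA replicate 1 or without control replicate 3 the fall was under 1.5-fold, with a smallest log2 change of -0.55, and the adjusted p stayed at 0.012 or less in every case with a library left out. The 1.5-fold limit was also missed with log2(RPKM + 1), at -0.34 (adjusted p = 0.0040), and with quantile normalization, at -0.57 (adjusted p = 0.0024). The summed level of the epithelial markers was 14.7 to 24.0 RPKM with control siRNA and 16.6 to 33.1 RPKM with Aurkb siRNA. The 6 epithelial markers tested went both ways, 3 up and 3 down with a median log2 change of -0.22, with Krt19 called higher and Sftpc called lower, while 10 of the 11 endothelial markers were called lower. The part of either cell type in the fall of Itgb4 was not tested.

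Itga9, which binds tenascin-C and VCAM1, was slightly lower, with 1683, 1527 and 1909 normalized counts against 1444, 1364 and 1443 (log2 change -0.26, SE 0.08, adjusted p = 0.026). It no longer passed when any of 4 libraries was left out, with an adjusted p of 0.073 without control replicate 3, 0.068 without Aurkb siRNA replicate 2, 0.059 without Aurkb siRNA replicate 3 and 0.052 without control replicate 1. With log2(RPKM + 1) Itga9 also fell short, at -0.23 (adjusted p = 0.052), while in the fit blocked on replicate it passed (adjusted p = 0.0028). Itga4, the alpha 4 subunit of the leukocyte receptor for VCAM1, was at 31.5 to 55.6 normalized counts over the 6 libraries, and its groups overlapped.

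Itgb2, the beta chain of the leukocyte integrins, passed as lower at a low level. It had 173, 148 and 173 normalized counts with control siRNA and 137, 122 and 114 with Aurkb siRNA (log2 change -0.40, SE 0.12, adjusted p = 0.027), and it did not pass without Aurkb siRNA replicate 2 (adjusted p = 0.058), Aurkb siRNA replicate 3 (0.091), control replicate 1 (0.087) or control replicate 3 (0.093). Its leukocyte partners Itgal, Itgam and Itgax, which the rule does not take in, were read 1 to 16 times in any library. The 9 hematopoietic markers present in the table summed to 61.6 to 78.2 RPKM with control siRNA and 36.0 to 49.1 RPKM with Aurkb siRNA. Of the 7 tested, 1 was called higher, 2 were called lower and 4 did not pass. Ptprc, which encodes CD45, had at most 6.21 normalized counts. The 6 neutrophil markers, in contrast, were all called higher. The part of these cells in the change of Itgb2 was not tested. Itgb7 had 2.63 to 10.6 normalized counts.

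The levels per length put these changes on a common scale. Itgb1 was highest, at 496 ± 45.5 RPKM with control siRNA and 543 ± 34.5 RPKM with Aurkb siRNA (SD, n = 3 for each level here). Itgb5 followed at 193 ± 16.6 and 149 ± 6.24 RPKM, and no other beta subunit exceeded 4.26 RPKM in any library. Among the alpha subunits with control siRNA, Itga8 led at 52.1 ± 7.05 RPKM, followed by Itga5 at 34.5 ± 1.98, Itgav at 30.0 ± 1.72, Itga2 at 28.5 ± 3.03, Itga1 at 23.9 ± 3.78 and Itga3 at 18.6 ± 2.73. Neighbors in this order from Itgav through Itga3 overlapped between libraries, whereas Itga8 lay above Itga5 and Itga5 above Itgav in all 3 libraries. With Aurkb siRNA, Itga5 led at 72.7 ± 14.7 RPKM and Itgav had dropped below Itga8, Itga2, Itga1 and Itga3, at 14.2, 16.2 and 14.6 RPKM.

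**Figure D3:**
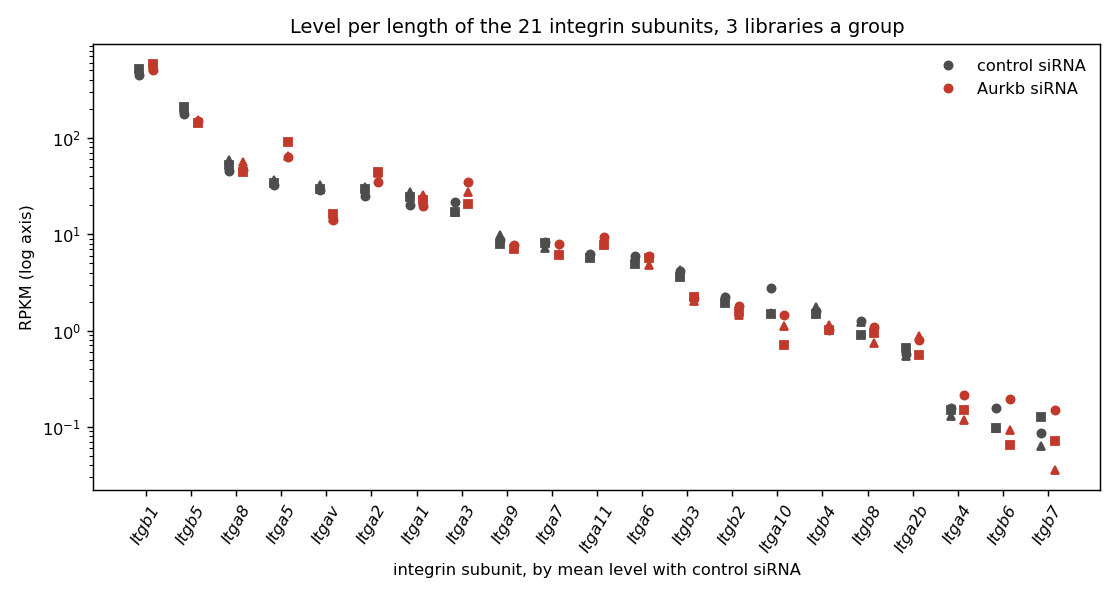
RPKM of the 21 integrin subunits in each library on a log axis, ordered by mean level with control siRNA, gray for control siRNA and red for Aurkb siRNA, with circles, squares and triangles for replicates 1, 2 and 3. Itgb1 and Itgb5 stand above all alpha subunits, and Itga5 and Itgav, side by side with control siRNA, are apart with Aurkb siRNA.

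Within each library the ratio of Itga5 to Itgav does not depend on how libraries are scaled. It was 1.13, 1.17 and 1.14 with control siRNA and 4.47, 5.55 and 4.48 with Aurkb siRNA. In the summed RPKM of the 13 alpha subunits, Itga5 took 15.7% to 15.9% with control siRNA against 25.2% to 33.8% after Aurkb siRNA, and Itgav 13.5% to 14.1% and 5.61% to 6.09%. The RGD-binding subunits together took 52.0% to 54.8% and 50.48% to 56.7%, ranges that overlapped. The collagen-binding subunits took 26.3% to 28.2% and 26.5% to 29.7%, likewise overlapping. These shares are a description, with no test, and they assume that the gene length used for RPKM holds for the transcripts in both groups.

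**Figure D4:**
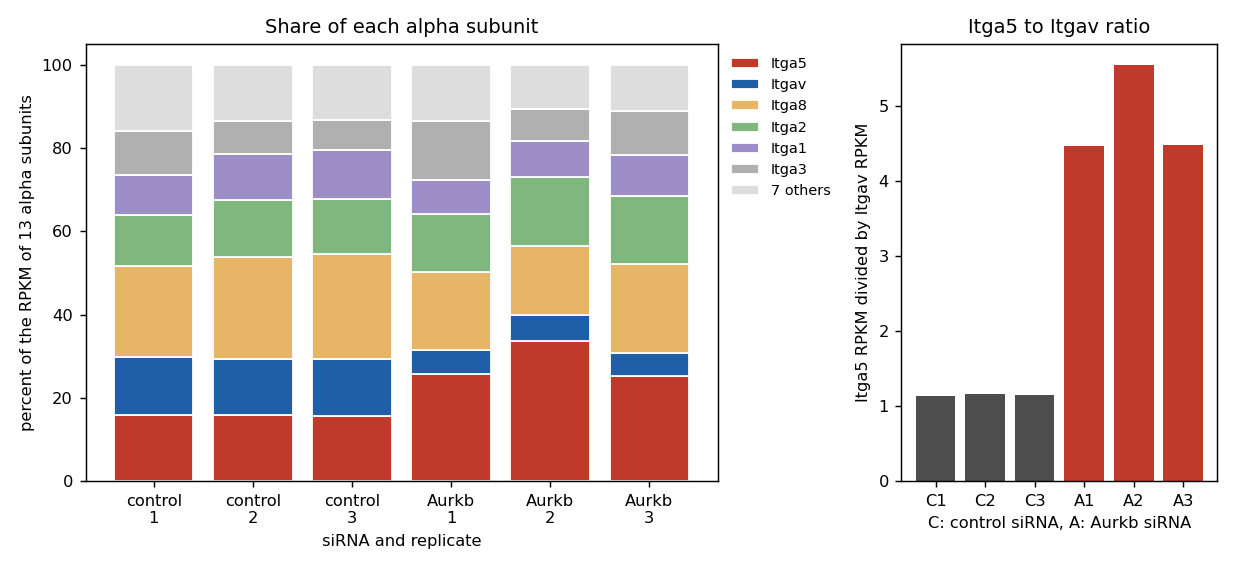
Left, percent of the summed RPKM of 13 alpha subunits taken by 6 subunits and by the 7 others, per library. Right, Itga5 RPKM divided by Itgav RPKM per library (C, control siRNA; A, Aurkb siRNA; 1 to 3, replicate). Itga5 widens and Itgav narrows in all 3 Aurkb siRNA libraries, and the ratio goes from at most 1.17 to at least 4.47.

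Of the 3 genes for talins and kindlin, which switch integrins on, Fermt2 and Tln1 were slightly higher. Fermt2, which encodes kindlin-2, had 5646, 5915 and 5926 normalized counts with control siRNA and 6871, 7859 and 7105 with Aurkb siRNA (log2 change 0.32, SE 0.06, adjusted p = 0.0027). Tln1, the main talin of fibroblasts, had 16945, 15492 and 17099 against 18123, 19713 and 19626 (log2 change 0.21, SE 0.06, adjusted p = 0.024), and its adjusted p was 0.060, 0.090 and 0.080 without Aurkb siRNA replicate 2, Aurkb siRNA replicate 3 and control replicate 2. Neither gene's groups overlapped. Tln2, the talin best known from muscle and brain, did not pass (interval -0.08 to 0.20).

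Of the complex of integrin-linked kinase, PINCH and parvin, only Lims1 passed. Lims1, which encodes PINCH1, had 6864, 6824 and 6974 normalized counts with control siRNA and 7543, 7583 and 7615 with Aurkb siRNA, a small change between tight groups (log2 change 0.14, SE 0.04, adjusted p = 0.029), and its adjusted p was between 0.053 and 0.094 whichever library was left out. Parva had a log2 interval of -0.07 to 0.21 and Ilk of -0.06 to 0.20. The exons of Ilk share 76.7% of their bases with Taf10 on the opposite strand, and the strand setting of the counting is not given in the sources used here, so reads of the pair may be mixed. Taf10 was higher with Aurkb siRNA (log2 change 0.45, SE 0.08, adjusted p = 0.0023).

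Of the signaling components of the plaque, 3 of 4 were higher. Tgfb1i1, which encodes the paxillin relative Hic-5, had 2196, 2120 and 2165 normalized counts with control siRNA and 2616, 3246 and 2765 with Aurkb siRNA, all above the control libraries (log2 change 0.41, SE 0.08, adjusted p = 0.0028). Ptk2, which encodes focal adhesion kinase, had 2241, 2225 and 2294 against 2574, 2901 and 2747 (log2 change 0.28, SE 0.05, adjusted p = 0.0033). Bcar1, the scaffold p130Cas, rose by the least of the 3, from 1998 to 2060 normalized counts with control siRNA to between 2191 and 2254 (log2 change 0.14, SE 0.04, adjusted p = 0.028), and passed without only 1 of the 6 libraries, control replicate 1, the adjusted p reaching 0.081 otherwise. Pxn, paxillin itself, did not pass, at 2472 to 2665 against 2590 to 2673 normalized counts (interval -0.07 to 0.14). Signaling genes of the wider plaque list below went both ways. Crkl, Shc1, Ptpn11, Pik3ca and Stat3 were among those that passed as lower, and Crk and Ptpn12 among those that passed as higher.

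Vasp and Vcl, of the layer that meets actin, moved apart. Vasp, which promotes actin filament growth, had 2236, 2189 and 2211 normalized counts with control siRNA and 3313, 3578 and 3495 with Aurkb siRNA. The control libraries were nearly identical and all treated libraries were higher (log2 change 0.65, SE 0.05, adjusted p = 2.7e-05). Zyx, zyxin, which recruits VASP to tensed filaments, had 10035, 9473 and 9342 against 11908, 13126 and 11418 (log2 change 0.34, SE 0.06, adjusted p = 0.0029).

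Vcl, vinculin, which links talin to actin, was the only 1 of the 20 named plaque components that passed as lower. It had 16864, 14178 and 15434 normalized counts with control siRNA and 11053, 12714 and 11824 with Aurkb siRNA, with no overlap (log2 change -0.38, SE 0.08, adjusted p = 0.0041). The exons of Vcl share 38.7% of their bases with Ap3m1 on the opposite strand, and Ap3m1 was higher with Aurkb siRNA (log2 change 0.49, SE 0.05, adjusted p = 0.00011), so reads of this pair may also be mixed, and the genes moved in opposite directions. Tns1 and Tns3, tensins of fibrillar adhesions, did not pass, with intervals of -0.20 to 0.18 and -0.16 to 0.18.

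Of the 5 genes for actin crosslinkers and PDZ-LIM proteins, Actn1, Flna and Pdlim7 were higher, by less than 1.5-fold. Actn1, alpha-actinin-1, had 14666, 16220 and 16672 normalized counts with control siRNA and 20877, 25570 and 22390 with Aurkb siRNA (log2 change 0.53, SE 0.08, adjusted p = 0.0012). Flna, filamin A, had 44281, 41250 and 45595 against 48929, 66328 and 56080, with Aurkb siRNA replicate 2 highest (log2 change 0.38, SE 0.11, adjusted p = 0.024), and did not pass without control replicate 2 (adjusted p = 0.087) or Aurkb siRNA replicate 3 (0.066). Pdlim7, a PDZ-LIM protein of actin bundles also known as enigma, had 2810, 2905 and 3100 against 3645, 4011 and 3961 (log2 change 0.40, SE 0.06, adjusted p = 0.00074). The groups of all 3 genes were apart. Actn4 and Pdlim5 did not pass, with intervals of -0.06 to 0.21 and -0.35 to 0.04.

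SRF, a transcription factor that answers to actin through the CArG box, is known to control many adhesion genes, so the RefSeq promoters (250 bases before to 50 after the start, GRCm38.p6) were searched on both strands for its box (CC, then 6 bases of A or T, then GG). A promoter was at hand for 30 of the 41 genes, and 3 of them held the box, against 1.6% of the 10983 tested genes with a promoter. They are shown because Vcl and Fermt2 passed the test in opposite directions while sharing it, with the box in capitals on the strand of the gene. The stretch of Vcl is chr14:20929161-20929190 (plus strand), that of Fermt2 chr14:45530250-45530279 (minus strand) and that of Itgb6 chr2:60673724-60673753 (minus strand). The Vcl stretch lies before the annotated gene, which begins at 20929383. Those of Fermt2 and Itgb6 lie inside their genes, which reach 45530310 and 60722603. They therefore belong to starts downstream of the 5′ end of the gene.
Vcl promoter: cccactatgcCCTTATAAGGagcgccccgc
Fermt2 promoter: tccttcatttCCATAAAAGGgcagcgctcc
Itgb6 promoter: cacctgacttCCTTATAAGGtgaatgagga
The TEAD word GGAATG was in 5 of the 30 promoters (Actn4, Flna, Itga10, Itgb1 and Vcl) and in 14.7% of all, and the AP-1 word TGANTCA in 4 (Actn4, Itga3, Itga9 and Zyx) and in 6.5% of all. Genes holding either word included ones that were higher, lower and not past the test. A match is a description of the letters and not a bound site.

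Further genes of the same machinery were looked at as lists. Of 61 other plaque genes tested, 12 were higher and 16 lower at an adjusted p of 0.05 or less, or 19.7% and 26.2% where all genes had 19.5% and 20.5%, with a median log2 change of 0.05. The called genes were 4 (7 without control replicate 2), 1 of them higher (1.64%, against 4.64% of all genes) and 3 lower (4.92%, against 7.67%). Crkl, an adaptor that binds p130Cas, had 1510, 1484 and 1570 normalized counts with control siRNA and 794, 880 and 845 with Aurkb siRNA (log2 change -0.86, SE 0.06, adjusted p = 2.1e-05). Ajuba, a LIM protein of adhesions and cell junctions, was higher (log2 change 0.63, SE 0.07, adjusted p = 0.00025), and Sorbs2 and Pdlim3, both known from muscle, were lower (log2 changes -1.16 and -1.06, SE 0.26 and 0.24, adjusted p = 0.0072 and 0.0077).

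Of 30 genes for ligands of integrins, 7 were higher and 5 lower at an adjusted p of 0.05 or less, or 23.3% and 16.7% where all genes had 19.5% and 20.5%. The median log2 change was -0.05, and 6 were called, 4 higher (13.3%, against 4.64% of all genes) and 2 lower (6.67%, against 7.67%). Ctgf and Cyr61, secreted matricellular proteins, were higher. Ctgf had 12983, 11768 and 10671 normalized counts against 23011, 24604 and 21441 (log2 change 0.97, SE 0.08, adjusted p = 5e-05), and Cyr61 had a log2 change of 0.62 (SE 0.10, adjusted p = 0.0010). Lama1, a laminin chain, was higher as well (log2 change 0.88, SE 0.12, adjusted p = 0.00065). Spp1, osteopontin, rested largely on Aurkb siRNA replicate 2, with 825, 779 and 749 against 1439, 4201 and 1485 normalized counts (log2 change 1.41, SE 0.34, adjusted p = 0.010, and 0.90 without that library). Vcam1, the ligand of alpha 4 and alpha 9 integrins, fell by 0.90 on the log2 scale (SE 0.09, adjusted p = 9.2e-05) and Postn, periostin, fell by 0.97 (SE 0.16, adjusted p = 0.0014).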

How the data were processed

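Total RNA of the 6 samples was sequenced by the authors. Tools named in the submitters' processing notes are TopHat, DESeq, CASAVA 1.8 and bcl2fastq, with the mm10 genome. For the strand setting, the annotation and the counting tool, none is given in the sources used here. For each library the authors deposited RPKM values, that is, reads scaled by gene length and by library size, and signal values, which are group means of counts divided by DESeq size factors. The authors also deposited fold or ratio values, log2 changes and p-values of their own comparison, which were not used. From the RPKM values and group means the whole reads were recovered (100% whole, tolerance 0.001, largest deviation 1.6e-09) and divided by the size factors.

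Genes averaging 10 or more normalized counts in either group were fitted as log2(normalized count + 1) with limma 3.58.1 (trend on, R 4.3.3, 4 residual degrees of freedom), so that a fold change is understated for low genes, and p-values were adjusted over all 13906 genes. Same-numbered libraries had deviations from their group means that correlated at 0.395, 0.173 and 0.214 across genes, and others at -0.243 to 0.049, so the replicate numbers were taken to pair the samples and a block was fitted as an alternative. Coordinates and overlaps are of GENCODE M21 on GRCm38, matched by gene symbol and number, and 3′ UTRs and coding sequences are those of its protein-coding transcripts. The study's methods name no block, so the main fit had none. Values in the text are of this unpaired fit unless a block is named, and fits with a library left out were unpaired too. The block kept the log2 changes but altered the SE, in both directions. It went from 0.16 to 0.07 for Itga3, from 0.28 to 0.13 for Itga10 and from 0.196 to 0.201 for Itga2b. Further alternatives were limma voom, other pseudocounts, filters, scalings, log2(RPKM + 1) and each library left out. Python 3.11.15 (matplotlib 3.10.9, numpy 2.4.6, pandas 2.3.3) served for tables and figures.

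The genes described, the 2 wider lists and the thresholds were chosen with earlier results of these data known. All called genes, all integrin subunits tested and all other components with an adjusted p of 0.05 or less are named, with others by interval, and the called genes of the wider lists up to 6 each. Some further genes of the wider plaque list are named beside members of a like role.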

Additional observations from a re-analysis of the deposited data

How the results depend on the processing

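The 2 genes called higher, Itga5 and Vasp, were called under every alternative run. Of the 4 called lower, Itgav and Itgb3 were called under every alternative, while Itga10 and Itgb4 dropped out with log2(RPKM + 1) and with quantile normalization, leaving 2, and Itga10 alone with limma voom. With 1 library left out, the genes called higher numbered 2 to 4 (4, with Actn1 and Itga2 added, without Aurkb siRNA replicate 1, and 3, with Itga3 added, without Aurkb siRNA replicate 2 or control replicate 1), those called lower 2 to 3, those higher at any size 10 to 14 and those lower at any size 5 to 9. The called plaque genes numbered 3 to 7, and 7 without control siRNA replicate 2, and the called ligand genes 5 to 7. With the replicate number as a block, Itga7 was added to the genes lower at any size, making 9, and no other call on the 41 genes changed. The wider lists were put through these alternatives after their values had been seen. Of 510 single-gene values under alternatives, over 32 genes, 463 kept direction and side of the threshold, 37 fell short of it, 2 passed it and 8 reversed, all of genes that did not pass. With 1 library left out, the log2 change of Itga1 ran from -0.2120 to 0.0208, of Itga4 from -0.1146 to 0.2852, of Itga6 from -0.1205 to 0.0409 and of Itgb6 from -0.5120 to 0.2047, each reversing in 1 or 2 of 6 cases, and Itga6 was at 0.0007 with quantile normalization. Why these moved was not tested. No scaling moved the median log2 change of all genes beyond 0.03. The few reads of Itga2b, Itga4, Itgb6, Itgb7 and Itgb8 limit what could be detected for them.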
